A study of Mus musculus with 13 samples.

Results

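Acetylation of lysine 27 of histone H3 (H3K27ac), a mark of active promoters and enhancers, was examined at 7 cadherin genes other than the E-cadherin gene Cdh1 in 9 mouse melanoma cell lines. The genes were chosen by name, as cadherins that might take the place of E-cadherin, which was not tested here. They were Cdh2, Cdh4, Cdh15, Cdh6, Cdh11, Cdh19 and Cdh13, out of 55450 annotated genes. For each gene the peaks over its body and 5 kb on either side were collected, and its promoter was called if any transcription start in the annotation had a peak no further than 1 kb away. These windows held 104 of the 256200 peaks, which merged into 28 of 59668 regions.

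All lines came from melanomas of mice on a C57BL/6J background with an NRAS Q61K transgene driven by the tyrosinase promoter (Tyr::NRAS), 1 functional allele of the tumour suppressor Cdkn2a, and floxed Cdh1 alleles (Cdh1 F/F). The ΔEcad mice also carried Tyr::CreA, a Cre recombinase under the tyrosinase promoter that deletes Cdh1 in the melanocyte lineage, whereas the Ecad mice had no Cre. The Ecad lines were Ma_1007 and Ma_1181 (male) and Ma_1014 and Ma_1039 (female), and the ΔEcad lines were Ma_1062 and Ma_1456 (male) and Ma_1057, Ma_1064 and Ma_1069 (female). Cells were cultured without treatment, each line had 1 H3K27ac list, and the 4 input libraries were not analysed here. The question was whether the genes of other cadherins are marked as active in melanoma cells, and whether this differs with E-cadherin loss or sex.

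Cadherins are calcium-dependent adhesion proteins of the cell surface. Classical cadherins bind the same or a related cadherin on the neighbouring cell, and their cytoplasmic tails hold p120-catenin and β-catenin, through which α-catenin reaches the actin cytoskeleton. Melanocytes in the epidermis adhere to keratinocytes through E-cadherin, and the replacement of E-cadherin by N-cadherin, known as the cadherin switch, is a classical feature of melanoma progression.

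The lists held 20741 (Ma_1069) to 41663 (Ma_1007) peaks. The paper states a sequencing depth that was aimed for, but the depth reached in each line is unknown. Of 21951 protein-coding genes, 25.3 to 33.3% had a called promoter in the female ΔEcad lists and 38.4 to 48.6% in the other 6, so missing promoter peaks were more frequent in the female ΔEcad lines over all genes. The median peak width was 943 to 1019 bp in these 3 lists and 1059 to 1195 bp in the others, and the part of these differences in the results on Cdh2 was not tested. A missing peak means that no peak passed the authors' threshold, not that the mark was absent. The melanocytic labels held, since the promoters of Sox10, Mitf, Dct, Tyr, Pmel and Mlana were called in all 9 lists and that of Tyrp1 in 6. Of the Schwann cell markers, which share the neural crest origin, 3 of 4 were called in all 9 lists, while none of the 4 myoblast and 4 keratinocyte markers was called in any. Among the fibroblast, endothelial and immune markers Pdgfra and Tek were called in Ma_1007 alone and Cd68 in 4 lists, and of the neuronal markers Tubb3 was called in all 9 and the other 2 in none.

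Of the 7 cadherin genes, 2 had a marked promoter in every line and 5 had one in no line. The promoters of Cdh2 (N-cadherin) and Cdh19 were called in all 9 lists, and those of Cdh4, Cdh15, Cdh6, Cdh11 and Cdh13 in 0 of 9. Over all protein-coding genes 21.1% were called in all 9 lists, 47.1% in none and 31.8% in some, so no cadherin of the set fell in the class that varied between lines by this call. With stricter calls Cdh2 did: it was called in 7 lists, not in Ma_1057 and Ma_1069, with the stronger 50% of peaks or with peaks of at least 500 bp, and in 6 lists, none of them female ΔEcad, when a peak had to lie over a start base. Peaks away from a start were found at all 7 genes, at Cdh19 only as the part of its start peak that was separate in Ma_1069. Outside Cdh2 and Cdh19 they were few, with between 0 and 5 peaks in a list, and 13 of the 28 merged regions (46.4%) were called in a single list against 34.0% of all regions. Conversely, 4 of the 28 (14.3%) were called in all 9 lists, against 13.7% of all regions. The grid of covered lengths shows this division between Cdh2 and Cdh19 and the other 5 genes.

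**Figure D1:**
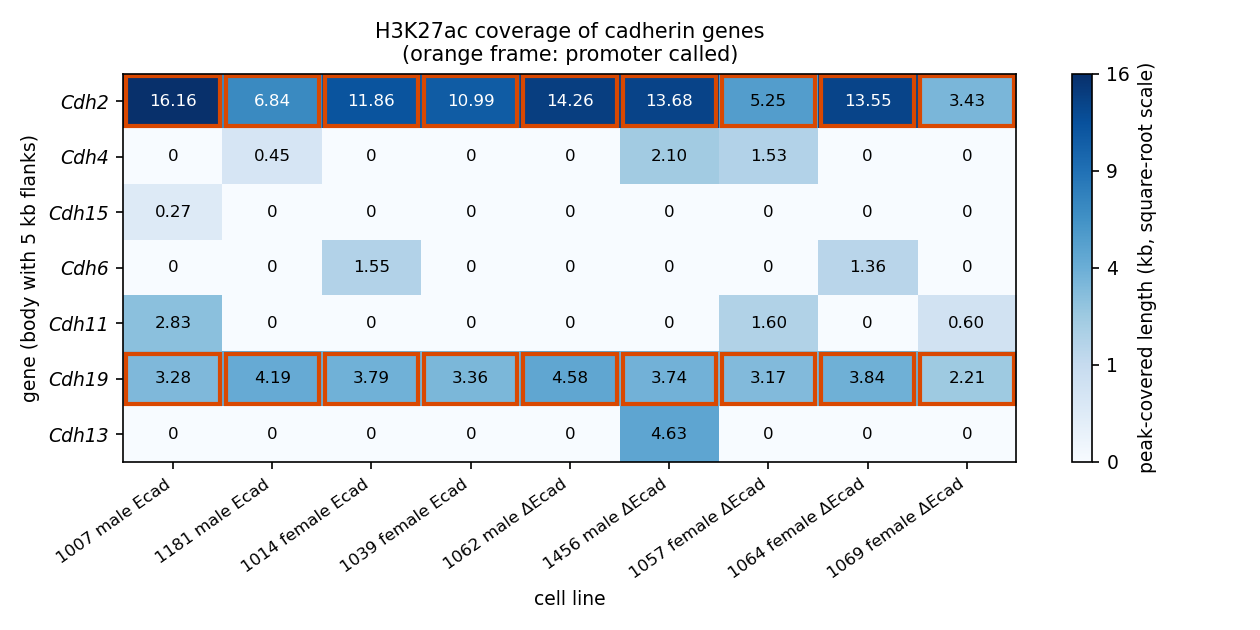
Length covered by H3K27ac peaks (kb, number and colour, square-root colour scale) in the window of each of the 7 genes (rows) in each of the 9 lines (columns), with an orange frame where the promoter was called. Cdh2 and Cdh19 are framed in all 9 lines, and the other 5 rows are mostly 0.

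Cdh2, a type I classical cadherin of neural and mesenchymal cells, had the most peaks of the set. The gene (ENSMUSG00000024304.14) lies on the minus strand of chromosome 18, 16588877 to 16809246 (GRCm38), and its 230 kb window held 78 of the 104 peaks in 14 regions. Peaks covered 16.2 kb in Ma_1007, 6.84 kb in Ma_1181, 11.9 kb in Ma_1014 and 11.0 kb in Ma_1039 among the Ecad lines. Among the ΔEcad lines they covered 14.3 kb in Ma_1062, 13.7 kb in Ma_1456, 5.25 kb in Ma_1057, 13.5 kb in Ma_1064 and 3.43 kb in Ma_1069. The genotypes overlapped widely, and the lowest 3 values were those of Ma_1069, Ma_1057 and Ma_1181. Per length, 1.49 to 7.01% of the Cdh2 window was covered, and 2.23 to 4.61% of the Cdh19 window. Cdh19 was above Cdh2 on this scale in Ma_1181, Ma_1057 and Ma_1069.

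The mean covered length over Cdh2 was 10.0 ± 5.24 kb (SD, n = 5) in ΔEcad and 11.5 ± 3.82 kb (SD, n = 4) in Ecad lines, a difference of −1.43 kb that was smaller than the SD of either group (two-sided exact permutation over lines, p = 0.667, adjusted over all 24615 genes tested 0.894). Female ΔEcad lines had 7.41 ± 5.39 kb (SD, n = 3) and the other lines 12.3 ± 3.24 kb (SD, n = 6), a difference of −4.89 kb (exact p = 0.119, adjusted 0.335). Female and male lines differed by −3.72 kb (exact p = 0.206, adjusted 0.621). Within females the ΔEcad minus Ecad difference was −4.02 kb (exact p = 0.4, where 10 splits allow no less than 0.1), and within males it was 2.47 kb (exact p = 1, where the smallest possible is 0.333). The direction of the genotype difference was not stable, since it was 0.134 kb without Ma_1007, 0.219 kb without Ma_1069, and 0.0290 kb per Mb with all lines kept when taken as a share of the list's covered length. Without Ma_1064 the female ΔEcad lines passed the unadjusted threshold (−7.96 kb, exact p = 0.0357).

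Of the 7 genes, 0 passed an unadjusted exact p of 0.05 for covered length in any of the 3 comparisons, while 14.7% of all tested genes did between ΔEcad and Ecad, 22.2% between female ΔEcad and the other lines and 11.0% between female and male lines. Cdh13 and Cdh15 had a peak in 1 list each and Cdh6 in 2, and with so few no split of the lines gives a p under 0.05. Their part of this count was fixed in advance, so the count cannot be read against those shares. After adjustment over all genes, 0 genes of the genome passed 0.05 in any of them, and the smallest adjusted p was 0.110. The median difference over the 7 genes was −0.115 kb between ΔEcad and Ecad, −0.0455 kb between female ΔEcad and the other lines and −0.331 kb between female and male lines, beside −0.330, −0.438 and −0.331 kb over all genes tested. Promoter calls of the 7 genes could not differ, being the same in every list. Of all genes called at least once, 5.3% differed by genotype at an unadjusted Fisher's exact p under 0.05, 7.8% between female ΔEcad and the other lines and 2.77% by sex.

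Along Cdh2, 3 regions were marked in all 9 lines: the start (chromosome 18, 16807462 to 16810054), a region in intron 2 at 95.9 kb from the start (16712293 to 16714477), and the 3′ end over the last exon, exon 16 (16587692 to 16590342). A list counted where its peaks overlapped the region by 1 bp. Where peaks had to cover at least 50% of it, the start and the intron 2 region were called in 6 lists each and the 3′ end in 8. A region in intron 1 at 29.9 kb (16778179 to 16781050) was called in 8 lists, all but Ma_1069. Regions at 13.6 kb (16794627 to 16796345) and 41.5 kb (16767091 to 16768748) were called in 7 lists each. The first of these was missing in Ma_1181 and Ma_1069 and the second in the male lines Ma_1181 and Ma_1456. A region at 11.2 kb (16796694 to 16798939) was called in 4 lists and reached percentile 83.7 in Ma_1062. In intron 2, a region at 55.7 kb (16752775 to 16753879) was called in 6 lists, with a highest percentile of 32.3. Further intron 2 regions at 62.6 kb (16744836 to 16746937) and 68.0 kb (16740616 to 16741516) were called in 3 lists each, with highest percentiles of 38.8 and 31.6. The other 4 regions, in introns 2 and 6, were called in 1 or 2 lists at percentile 34.7 or below. No other annotated gene overlapped the Cdh2 regions.

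**Figure D2:**
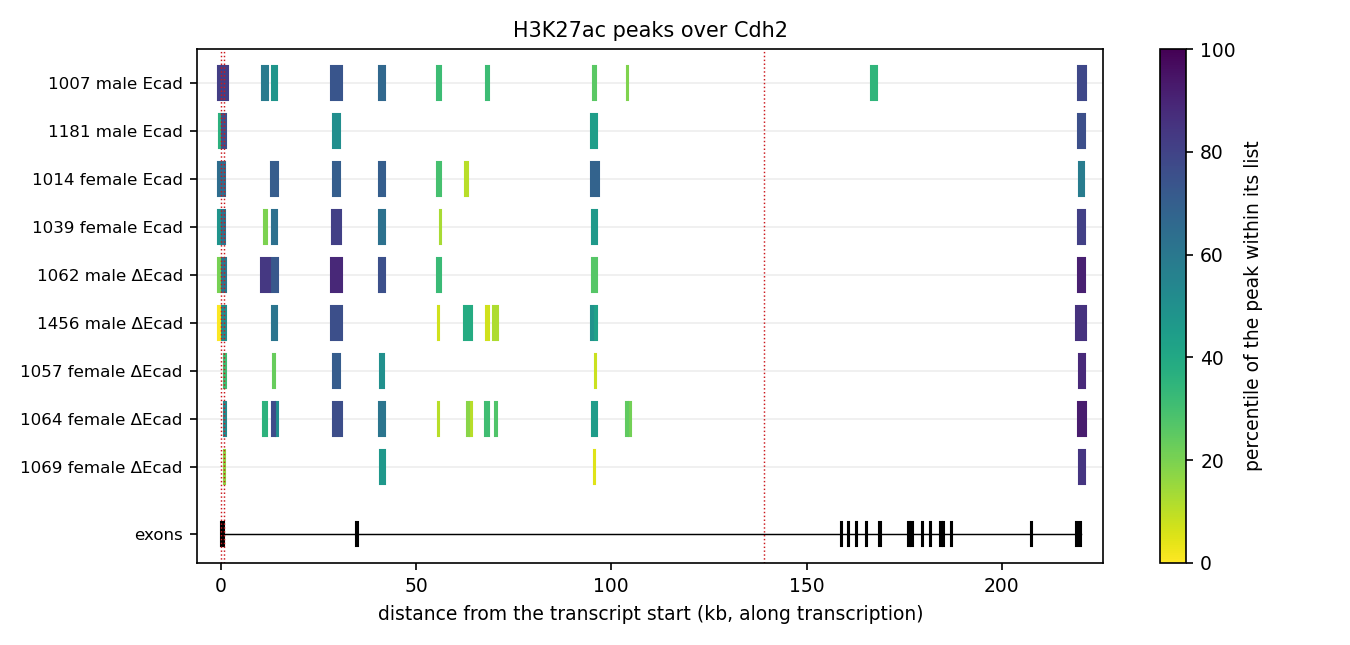
H3K27ac peaks over Cdh2 in each line (rows), by distance from the main start along transcription (kb), with colour giving the percentile of each peak within its list, black marks the exons and dotted red lines the annotated starts. Peaks at the start, near 95.9 kb and at the 3′ end appear in all 9 rows, and Ma_1069 has 4 peaks in all against 15 in Ma_1064.

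At the Cdh2 start the stretch under peaks was shorter in the female ΔEcad lines. Peaks there covered 2593 bp in Ma_1007, 1538 bp in Ma_1181, 1837 bp in Ma_1014, 1464 bp in Ma_1039, 1590 bp in Ma_1062 and 1471 bp in Ma_1456. In the female ΔEcad lines they covered 359 bp in Ma_1057, 518 bp in Ma_1064 and 276 bp in Ma_1069. The groups did not overlap, with means of 384 ± 123 bp (SD, n = 3) and 1749 ± 436 bp (SD, n = 6), a difference of −1364.5 bp (exact permutation test, two-sided, p = 0.0119, the smallest that 84 splits allow, adjusted over the 8187 regions in all 9 lists 0.0821). Of those regions 30.2% passed the unadjusted threshold in this comparison in either direction. Of the 4 cadherin regions in all 9 lists it was the only one to pass in this comparison, and the measure was chosen after these values had been seen.

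The missing stretch was that around the start itself. In the 3 female ΔEcad lines the remaining peak began 0.802 to 0.852 kb inside the gene, over the end of exon 1 and the beginning of intron 1, with its summit 0.901 to 0.983 kb from the start. In 5 of the 6 other lines the summit lay 0.318 to 0.324 kb from the start, and in Ma_1456 at 1.09 kb. Those 6 lines also had signal upstream of the start, as part of 1 wide peak in Ma_1007 and Ma_1014 and as a separate peak of 314 to 514 bp in the other 4. A peak over any annotated start base of Cdh2 was present in 6 of 6 other lists and in 0 of 3 female ΔEcad lists (p = 0.0119 by a two-sided Fisher's exact test, adjusted 0.215), where 11.1% of 13448 genes passed unadjusted. In 4 of those 6 lists the base covered was the start of a retained-intron transcript 0.784 kb inside the gene, and the base of the main start (16809246) lay under a peak only in Ma_1007 and Ma_1014. The female ΔEcad peaks began just past that retained-intron start, at 0.802 to 0.852 kb, so the split by this call turned largely on a short distance.

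**Figure D3:**
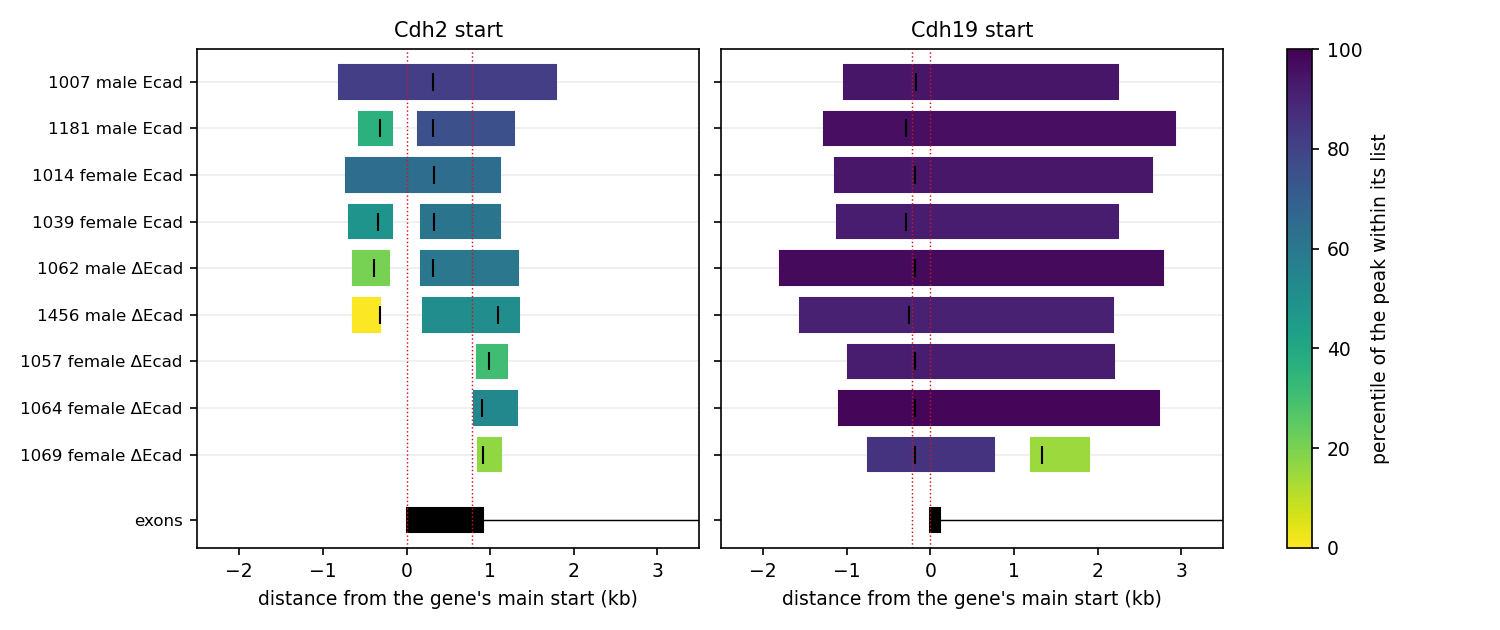
H3K27ac peaks (bars) and their summits (black ticks) around the starts of Cdh2 (left) and Cdh19 (right) in each line, by distance from the main start (kb along transcription), with colour giving the percentile of the peak in its list, black boxes the exons and dotted red lines the annotated starts. At Cdh2 the 3 female ΔEcad rows hold only a bar of 276 to 518 bp downstream, while at Cdh19 a wide bar covers the start in all 9 rows.

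The peaks at the 2 ends of Cdh2 ranked differently by genotype, in opposite directions, at the unadjusted threshold. Their rank is the percentile of −log10 q among all peaks of the same list. The percentile of the strongest Cdh2 start peak within its list was 81.7 in Ma_1007, 75.6 in Ma_1181, 64.7 in Ma_1014 and 61.4 in Ma_1039, and 60.3 in Ma_1062, 51.5 in Ma_1456, 30.5 in Ma_1057, 53.5 in Ma_1064 and 16.5 in Ma_1069. At the 3′ end it was 78.5, 76.1, 58.5 and 80.9 in the same Ecad lines, and 91.1, 85.7, 88.5, 92.2 and 84.7 in the ΔEcad lines. Every ΔEcad line was thus below every Ecad line at the start and above every Ecad line at the 3′ end on this scale. Ranked by fold enrichment instead, the genotypes overlapped at the start but not at the 3′ end. The start then had 69.5 in the ΔEcad line Ma_1062, above 65.8 in Ma_1014 and 60.2 in Ma_1039. Its genotype difference by fold enrichment was −34.5 points (exact permutation test, two-sided, p = 0.0476).

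The start averaged 42.4 ± 18.3 (SD, n = 5) in ΔEcad and 70.8 ± 9.45 (SD, n = 4) in Ecad lines, a difference of −28.4 percentile points (exact permutation test, two-sided, p = 0.0159, adjusted 0.327). The 3′ end averaged 88.5 ± 3.27 (SD, n = 5) and 73.5 ± 10.2 (SD, n = 4), a difference of 15.0 points (exact p = 0.00794, the smallest that 126 splits allow, adjusted 0.327). Of the regions in all 9 lists, 13.3% passed unadjusted in this comparison and 0 after adjustment. Of 4839 such regions near a start of any gene, 15.5% were lower and 0.909% higher in ΔEcad at the unadjusted threshold, so the direction of the Cdh2 start was common. Of 3348 regions away from a start 6.87% were lower and 2.00% higher, and the Cdh2 3′ end was of this class and direction.

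Beside the other promoters called in all 9 lists, the Cdh2 start ranked low in every line. It stood above 23.0 to 33.8% of the 4622 such protein-coding promoters in the Ecad lists and above 6.79 to 23.5% in the ΔEcad lists, ranges that overlap between Ma_1039 and Ma_1064. Ranked among the regions in all 9 lists, the genotype difference at the start was −16.7 points (exact p = 0.0397) and that at the 3′ end 37.6 points (exact p = 0.00794). Leaving out any 1 of the 4 Ecad lines left the start short of the threshold, with differences from −24.8 to −31.5 points and exact p from 0.0536 to 0.0893, while the 3′ end passed in all 9 sets of 8 lines, with differences from 9.99 points without Ma_1014 to 17.5 points without Ma_1039.

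Within females the start differed by −29.5 points (exact p = 0.2) and within males by −22.7 points (exact p = 0.333), and the 3′ end by 18.8 points (exact p = 0.1) and 11.2 points (exact p = 0.333), with designs that allow no less than 0.1 and 0.333. The start and the 3′ end therefore differed the same way in both sexes, in groups too small for a test to pass. The region in intron 2 had percentiles of 25.5 to 68.6 in Ecad and 4.82 to 48.5 in ΔEcad lines, which overlapped (difference −19.6, exact p = 0.183, adjusted 0.505). Within females it differed by −38.1 points with no overlap (exact p = 0.2) and within males by 2.54 points (exact p = 0.667), and the difference between the sexes was not tested. Only without Ma_1064 did it pass in the comparison of female ΔEcad with the other lines (−36.8 points, exact p = 0.0357). Between female ΔEcad and the other lines 1 of the 4 cadherin regions passed unadjusted, the Cdh2 start (−32.3 points, exact p = 0.0238, adjusted 0.153), against 21.9% of all regions in the 9 lists, and it did not pass without Ma_1057 (−30.9 points, exact p = 0.0714) or Ma_1069 (−23.9 points, exact p = 0.107), nor with all lines when ranked among the regions in all 9 lists (−16.8 points, exact p = 0.0714). Between female and male lines 0 of the 4 passed, against 8.73%. In covered length, 0 of the 4 passed between ΔEcad and Ecad lines, against 16.0% of all regions in the 9 lists, and 0 between the sexes, against 13.8%.

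**Figure D4:**
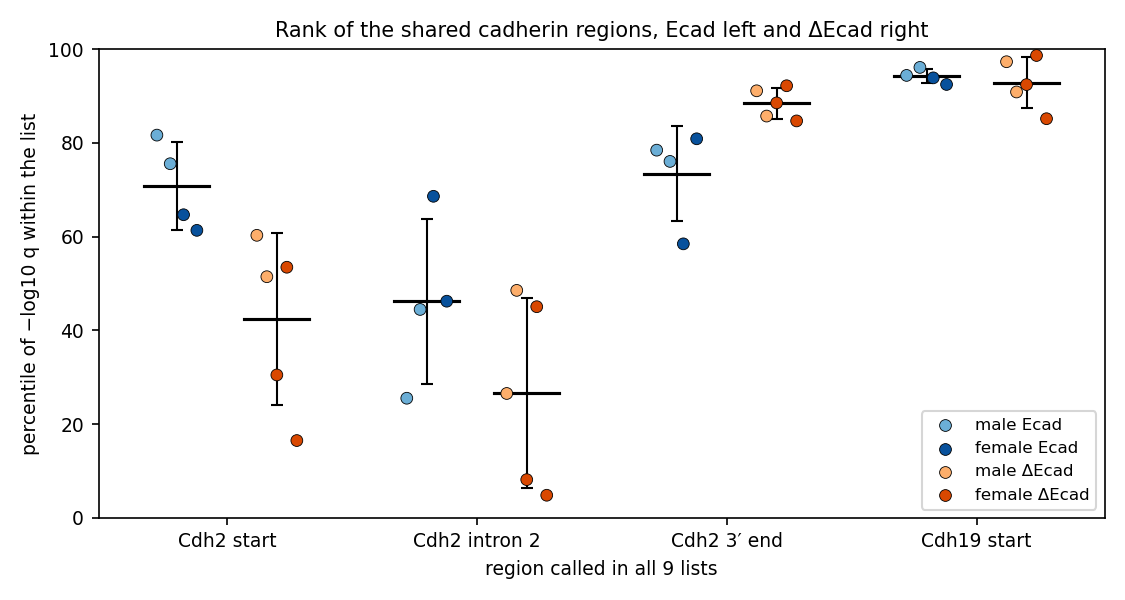
Percentile of −log10 q within its list for the 4 cadherin regions called in all 9 lists (columns), with 1 point per line, Ecad lines left and ΔEcad lines right, bars for the mean and error bars for the SD (n = 4 and n = 5). ΔEcad points lie below all Ecad points at the Cdh2 start and above them at the Cdh2 3′ end, and the groups overlap at the Cdh2 intron and the Cdh19 start.

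Cdh4, the gene of R-cadherin, a type I cadherin of retina and brain, was covered only at single sites in single lines. The gene (ENSMUSG00000000305.12) is on the plus strand of chromosome 2, 179442431 to 179899373, and the 4 peaks in its window all lay in intron 2. Ma_1456 had 1 of 2100 bp (179709063 to 179711162, percentile 68.5), Ma_1057 had 2, of 325 and 1206 bp (percentiles 46.8 and 19.9), and Ma_1181 had 1 of 449 bp (percentile 9.78). The other 6 lists held none, and no site was shared between lines.

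Cdh15 encodes M-cadherin, a type I cadherin of myoblasts and satellite cells. The gene (ENSMUSG00000031962.6, plus strand of chromosome 8, 122847966 to 122867397) had 1 peak in 1 list, Ma_1007, of 273 bp in intron 1 (122852309 to 122852581) at percentile 1.14, and it overlapped the annotated gene Gm20388. Its start carried no peak in any line, nor did the starts of the myoblast genes Myod1, Myf5, Myog and Des. The RefSeq promoter window of Cdh15 (GRCm38.p6, chr8:122848124-122848423, plus strand, 300 bases) is shown as the promoter of a gene with no marked start. RefSeq places the start further downstream than the annotation used for the calls (122847966), so the window lies within the first exon of the latter and does not hold its start. CG dinucleotides, which are frequent at starts that are active in many cell types, are in capitals. It has 7, as many as the median over the 32851 promoter windows of the RefSeq table, which held 2 of the 7 genes.
Cdh15 promoter: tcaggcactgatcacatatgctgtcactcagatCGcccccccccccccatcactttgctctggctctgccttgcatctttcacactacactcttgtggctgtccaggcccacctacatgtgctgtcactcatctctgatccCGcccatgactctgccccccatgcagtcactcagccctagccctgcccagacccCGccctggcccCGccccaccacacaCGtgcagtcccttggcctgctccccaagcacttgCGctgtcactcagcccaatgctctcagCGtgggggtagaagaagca

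Cdh6, K-cadherin, is a type II classical cadherin of kidney and of the early neural crest. The gene (ENSMUSG00000039385.5) is on the minus strand of chromosome 15, 13028701 to 13173675. Its start was unmarked, and its only shared site lay downstream of the 3′ end. A region at 13025686 to 13027235 was called in the female lines Ma_1014 (1550 bp, percentile 75.2) and Ma_1064 (618 bp, percentile 38.1), and the 2 summits were at adjacent bases, 13026661 and 13026662. Ma_1064 also had a peak of 746 bp in intron 2 at percentile 21.1, and the other 7 lists held none. The RefSeq promoter window (GRCm38.p6, chr15:13173626-13173925, minus strand), with CG in capitals, and 300 bases around the Ma_1014 summit (GRCm38, chr15:13026511-13026810, minus strand), with matches to the motifs listed further on in capitals, are shown as the unmarked start and the strongest site of the gene. The promoter window holds 8 CG and the site none, and the capitals of the site are CACATG, the reverse complement of CATGTG, an E-box that MITF can bind.
Cdh6 promoter: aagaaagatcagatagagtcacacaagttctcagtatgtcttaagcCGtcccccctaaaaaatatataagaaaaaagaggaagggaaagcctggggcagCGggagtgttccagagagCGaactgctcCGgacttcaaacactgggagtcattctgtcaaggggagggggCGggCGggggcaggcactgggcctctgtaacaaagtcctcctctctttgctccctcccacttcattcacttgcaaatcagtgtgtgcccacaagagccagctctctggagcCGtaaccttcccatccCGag
Cdh6 site: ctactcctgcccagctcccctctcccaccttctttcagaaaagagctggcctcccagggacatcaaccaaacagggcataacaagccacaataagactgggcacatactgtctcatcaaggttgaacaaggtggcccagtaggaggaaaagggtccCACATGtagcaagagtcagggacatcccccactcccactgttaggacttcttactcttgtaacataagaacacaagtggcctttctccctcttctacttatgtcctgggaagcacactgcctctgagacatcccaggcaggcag

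Cdh11, the type II OB-cadherin of osteoblasts and mesenchyme, had 2 regions in intron 2. The gene (ENSMUSG00000031673.6) lies on the minus strand of chromosome 8, 102632095 to 102785642. The region at 102706630 to 102708381 was called in Ma_1007 (1752 bp, percentile 55.1), Ma_1057 (1599 bp, percentile 42.2) and Ma_1069 (605 bp, percentile 36.6), 1 Ecad and 2 female ΔEcad lines. It overlapped 9430099M06Rik, an annotated gene whose start lies within 1 kb, so the peak cannot be assigned to Cdh11 by position. The region at 102713159 to 102714236 was called in Ma_1007 alone (percentile 32.7).

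Cdh19, a type II cadherin known from Schwann cell precursors and other derivatives of the neural crest, had the strongest and most uniform mark of the set. The gene (ENSMUSG00000047216.8) is on the minus strand of chromosome 1, 110888326 to 110977584, and all of its peaks lay at its 5′ end. The width of the peak over the start was 3276 bp in Ma_1007, 4194 bp in Ma_1181, 3794 bp in Ma_1014, 3363 bp in Ma_1039, 4579 bp in Ma_1062, 3742 bp in Ma_1456, 3170 bp in Ma_1057 and 3836 bp in Ma_1064. In Ma_1069, which has the shortest list, it was 1510 bp, with a second peak of 699 bp further inside the gene. In the first 8 lines the peak was wider than at least 90.4% of the peaks of its list, and in all 9 its summit lay upstream of the main protein-coding start (110977363), at −0.295 to −0.178 kb.

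The Cdh19 start peak had percentiles of 92.5 to 96.1 in Ecad lines and 85.2 to 98.7 in ΔEcad lines. Over the 4622 protein-coding promoters called in all 9 lists, its median percentile of 93.9 ranked 465, above 89.9% of them, whereas that of Cdh2, 60.3, ranked 3766, above 18.5%. In fold enrichment over the local background the Cdh19 peak was between 17.6 (Ma_1069) and 63.6 (Ma_1181), and the Cdh2 start peak between 4.09 (Ma_1069) and 21.4 (Ma_1181). In each of the 9 lines the Cdh19 peak stood above the Cdh2 peak on both scales.

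Cdh19 did not differ between the groups beyond the spread between lines. Its covered length was 3.51 ± 0.882 kb (SD, n = 5) in ΔEcad and 3.66 ± 0.424 kb (SD, n = 4) in Ecad lines (difference −0.150 kb, exact permutation p = 0.778, adjusted 0.946). Female ΔEcad lines had 3.07 ± 0.818 kb (SD, n = 3) and the others 3.82 ± 0.495 kb (SD, n = 6), a difference of −0.753 kb (exact p = 0.107, adjusted 0.313), which passed the unadjusted threshold only without Ma_1064 (−1.14 kb, exact p = 0.0357). Female and male lines differed by −0.673 kb (exact p = 0.159, adjusted 0.565). Its percentile differed by −1.33 points between ΔEcad and Ecad lines (exact p = 0.675), and the difference was 0.604 points without Ma_1069, 2.87 points when ranked among the regions in all 9 lists and 0.249 points with lists shortened to the length of the shortest. The covered-length difference by genotype also turned, to 0.0295 kb without Ma_1181, 0.175 kb without Ma_1069 and 0.0161 kb per Mb as a share of the list.

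In Ma_1069 the peak that continued over the Cdh19 start in the other lines was broken, and the separate part in intron 1 ranked at percentile 14.9 of its list. The 300 bases around the summit of that part (GRCm38, chr1:110975880-110976179, minus strand) are shown because they hold the summit that was separate in Ma_1069, with matches to the motifs in capitals. These bases lay under a peak in the other 8 lists too, and the stretch without a peak in Ma_1069 between its 2 peaks lies almost wholly outside them. The matches are CACCTG, the reverse complement of CAGGTG, an E-box bound by repressors of the Snail and Zeb families, and CTTTGT, the reverse complement of the SOX motif ACAAAG.
Cdh19 site: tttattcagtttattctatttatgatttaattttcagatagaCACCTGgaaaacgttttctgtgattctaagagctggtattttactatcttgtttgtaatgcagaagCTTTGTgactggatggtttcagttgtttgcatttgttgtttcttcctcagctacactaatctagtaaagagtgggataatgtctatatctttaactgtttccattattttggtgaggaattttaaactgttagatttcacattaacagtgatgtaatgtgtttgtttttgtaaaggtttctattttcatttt

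Cdh13, T-cadherin, is unusual in that it lacks a cytoplasmic tail and is held in the membrane by a lipid anchor. The gene (ENSMUSG00000031841.19) spans 1041 kb on the plus strand of chromosome 8, 118283733 to 119324921, the longest of the set. All 4 of its peaks were in 1 line, the male ΔEcad line Ma_1456, and lay in introns. The widest were 1995 bp in intron 2 (118539025 to 118541019, percentile 78.9) and 1848 bp in intron 3 (118712952 to 118714799, percentile 65.7), and the other 2, of 384 and 403 bp, were both at percentile 15.3. The other 8 lists held no peak in more than 1 Mb. With a peak in 1 line only, the exact permutation test by genotype gives p = 1 whatever the covered length, so it cannot decide whether the genotypes differ. Around the summit of the widest peak (GRCm38, chr8:118540041-118540340, plus strand) the 300 bases hold 1 match in capitals, the SOX motif ACAAAG, shown because this was the highest-ranked site of the gene.
Cdh13 site: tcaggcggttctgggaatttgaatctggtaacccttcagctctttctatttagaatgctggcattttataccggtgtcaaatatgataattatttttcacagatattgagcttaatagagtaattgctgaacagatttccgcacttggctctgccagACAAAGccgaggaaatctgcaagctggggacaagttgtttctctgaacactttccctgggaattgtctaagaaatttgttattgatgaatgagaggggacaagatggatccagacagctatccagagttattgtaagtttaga

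Motifs were counted on both strands in 300 bases around the summit of the highest-ranked peak of every region, as a description. They were CATGTG and CACGTG (E-boxes that MITF can bind, the second its own reverse complement), ACAAAG (SOX), CTTTGA (TCF/LEF), GGAATG (TEAD), TGANTCA (AP-1) and CAGGTG (Snail and Zeb), and none contains another. ACAAAG was present in 12 of the 28 cadherin regions (42.9%) and in 25.8% of 59643 regions, and CTTTGA in 9 (32.1%) and 20.8%. CATGTG was present in 7 (25.0%) and 19.4%, CACGTG in 3 (10.7%) and 3.71%, TGANTCA in 3 (10.7%) and 9.20%, CAGGTG in 5 (17.9%) and 15.3%, and GGAATG in 1 (3.57%) and 15.5%. At the Cdh19 start the summit window held CTTTGA and none of the others. At the Cdh2 start it held ACAAAG at 2 places, and at the Cdh2 3′ end none of the motifs was found. The regions of Cdh2 lie in 1 gene, and counts this small were not tested.

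The 2 called starts lay near opposite ends of the range of CG content. The 1 kb around the Cdh19 start holds 6 CG dinucleotides, a count below which only 11.9% of protein-coding starts lie, and of 506 starts with a CG count within 10% of it 3.16% were called in all 9 lists and 87.7% in none. The Cdh2 start has 109, and 42.3% of 1130 starts with a like count were called in all 9. Cdh4 has almost as many, 105, yet was among the 15.6% of 1325 like starts called in no list. Cdh6 had 57, Cdh13 51, Cdh11 40 and Cdh15 20, and of the starts with like counts 21.2, 25.3, 36.4 and 66.9% were called in none. Thus among the 7 genes the calls did not follow the CG count of the start, although over all genes the share called in all 9 lists rose with it.

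**Figure D5:**
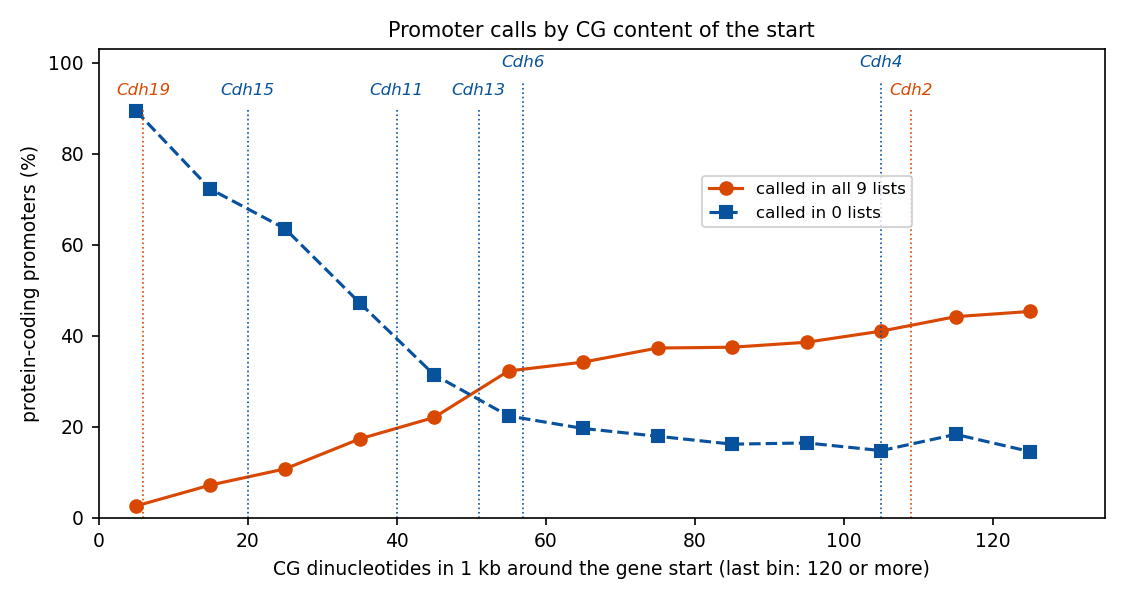
Share of protein-coding promoters (%) called in all 9 lists (orange) and in 0 lists (blue) by the number of CG dinucleotides in 1 kb around the gene start, in bins of 10, with dotted lines at the values of the 7 genes in the colour of their own call. Cdh19, at 6, is called in all 9 lists where most starts are called in none, and Cdh4, at 105, is called in none.

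Cdh1 and Cdh3, the E- and P-cadherin genes, differed from both patterns. The Cdh1 promoter was called in 0 of 9 lists although its window held peaks in all 9, and Cdh3 had its only peak in Ma_1069, at the start. The paper describes the Ecad lines Ma_1181 and Ma_1039 as E-cadherin positive. An uncalled promoter, here or at the 5 uncalled genes above, therefore does not show that a gene is silent. Covered length over Cdh1 was 3.83 ± 2.23 kb (SD, n = 5) in ΔEcad and 6.86 ± 1.66 kb (SD, n = 4) in Ecad lines, a difference of −3.04 kb (exact permutation p = 0.0635, adjusted 0.365). It was 2.43 ± 0.753 kb (SD, n = 3) in female ΔEcad and 6.55 ± 1.66 kb (SD, n = 6) in other lines (exact permutation p = 0.0238, adjusted 0.151). Floxed Cdh1 sequence that Cre deleted in the ΔEcad lines cannot hold a peak, and its part in these differences was not tested. Of 15 other cadherins, Cdh1 and Cdh3 included, 12 had a called promoter in no list. The exceptions were Cdh17 (8 lists, all but Ma_1069), Cdh3 and Cdh9 (Ma_1014), so 0 of the 15 were called in all 9 lists, as Cdh2 and Cdh19 were.

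Of those 15, 12 had a peak in their window in at least 1 list and were tested for covered length. None was higher at an unadjusted p under 0.05, and Cdh24 between ΔEcad and Ecad lines (−0.683 kb, exact permutation p = 0.0476) and Cdh1 in the comparison above were lower. Of 7 catenins, which link cadherins to actin, Ctnna1 (α-catenin), Ctnnb1 (β-catenin) and Ctnnd1 (p120-catenin) were called in all 9 lists. Jup (plakoglobin) was called in 5 lists, Ctnna3 in 4, and Ctnna2 and Ctnnd2, which are used in neurons, in none. In covered length Ctnna1 was lower in ΔEcad lines (−5.81 kb, exact permutation p = 0.0476, adjusted 0.324) and in female ΔEcad lines (−6.76 kb, exact permutation p = 0.0357, adjusted 0.186), and Ctnnb1 in female ΔEcad lines (−3.49 kb, exact permutation p = 0.0476, adjusted 0.215). Between the sexes Ctnna3 was lower in females (−3.36 kb, exact permutation p = 0.0317, adjusted 0.434), and 0 catenins passed after adjustment. Of all genes tested, 14.7% passed unadjusted by genotype, 22.2% between female ΔEcad and the other lines and 11.0% by sex, in either direction. The median differences over all genes were −0.330, −0.438 and −0.331 kb, so lower covered lengths were common in these comparisons.

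The genes whose covered length ran most like that of a cadherin over the 9 lists were sought among at most 12567 protein-coding genes over 1 Mb away or on other chromosomes, as a description over points that share list length. For Cdh2 they were Nup214 (Pearson's r = 0.960), Mcam (0.949) and Fyb (0.949). Mcam encodes the melanoma cell adhesion molecule. For Cdh19 they were Fbxo15 and Timm21 (0.970 each, overlapping genes that share peaks) and Faf1 (0.953). For Cdh4 the values were 0.963 (Cbfa2t3), 0.955 (Eif1ax) and 0.949 (Hspb8) and for Cdh11 0.970 (Gdpd4), 0.969 (Zfp652) and 0.965 (Nisch), each resting on 3 lists with a peak. Cdh6, Cdh13 and Cdh15 had peaks in fewer than 3 lists and were not compared.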

How the data were processed

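H3K27ac was measured by ChIP-seq in 9 lines with 1 peak list each. The submitters' processing notes name GRCm38 (mm10), Bowtie2 2.4.5, MACS2 2.2.7.1 and deepTools 3.5.1.0.0. The authors' lists, deposited in narrowPeak form, give for each peak an integer score, a ratio (fold enrichment over local background), −log10 of p and q, and the summit offset. Which input served as control is not given in the sources used here. No list holds a peak with a −log10 q under 5.00, and the depth reached in each line is unknown, so precision rests on the spread between lines.

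Genes and starts were taken from GENCODE release M21. Peaks overlapping a gene body with 5 kb on each side by at least 1 bp were merged into regions across lists. Strength was the percentile of −log10 q within a list. Covered length was compared by an exact two-sided permutation test over lines, and promoter calls by Fisher's exact test, with Benjamini-Hochberg adjustment over all genes or regions with a peak in at least 1 list (regions: in all 9). The tests on regions in all 9 lists were added after seeing the data, and the genes, lists and motifs were chosen with earlier results of these data known. The text names all 7 genes, their regions in at least 3 lists, in the top 10% of a list or widest for a gene, and the 3 genes most like each by Pearson's r. Other regions named were chosen after their values were seen. The labels do not say whether lines came from separate mice, so p-values measure the spread between lines. Python 3.11.15, numpy 2.4.6, pandas 2.3.3, scipy 1.17.1, pysam 0.24.0 and matplotlib 3.10.9 were used, and the tests were tested on simulated data. The closing section gives the alternatives tried.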

Additional observations from a re-analysis of the deposited data

Results flagged for a closer look

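Dixon's criterion at the 95% level was applied in groups of 4 or 5 lines. A value stood apart from the rest of its group 11 times. The chance rate of about 1 in 20 groups does not hold where the other values are all 0, so 11 cannot be set against it. In 10 of the 11 the other lines of the group had no peak in the window. Any covered length in 1 line then passed the criterion, whatever its size or number of peaks. These were 0.449 kb over Cdh4 in Ma_1181 among the Ecad lines and 1.531 kb over Cdh4 in Ma_1057 among the female lines. Over Cdh15 Ma_1007 stood apart with 0.273 kb among both the Ecad and the male lines, and over Cdh11 with 2.83 kb among the same groups. Over Cdh6 they were 1.364 kb in Ma_1064 among the ΔEcad lines and 1.55 kb in Ma_1014 among the Ecad lines. Over Cdh13 Ma_1456 had 4.63 kb, apart from both the ΔEcad and the male lines. The remaining value was the covered length at the Cdh2 start in Ma_1007, 2593 bp, above the other male lines, and Ma_1007 has the longest list.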

How the results depend on the processing

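The promoter calls of Cdh19 and of the 5 uncalled genes were the same in all lists under shorter lists, stronger or wider peaks, both other windows and protein-coding starts, while Cdh2 was called in 7 lists with the stronger 50% of peaks or peaks of at least 500 bp and in 6 over the start base. No paired analysis was made, because the labels give no pairing between the lines. Between female ΔEcad and the other lines, 1 of the 7 windows passed with the stronger 50% of each list (Cdh2, −4.67 kb, exact permutation p = 0.0357) and 1 with peaks of at least 500 bp (Cdh2, −5.97 kb, exact permutation p = 0.0476), 0 to 2 when single lines were left out (2 without Ma_1064), and 1 promoter over the start base. With at least 50% of a region covered, 0 regions were called in all 9 lists in place of 4.

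As a share of the list's covered length the ΔEcad minus Ecad difference turned to 0.0290 kb per Mb for Cdh2 and 0.0161 for Cdh19, and for Cdh19 in female ΔEcad lines to 0.00334. With single lines left out it ranged from −2.97 to 0.219 kb for Cdh2 and from −0.418 to 0.175 kb for Cdh19. The Cdh19 percentile turned to 2.87 (ΔEcad) and 1.68 points (female ΔEcad) ranked among regions in all 9 lists and to 0.249 points (ΔEcad) with shortened lists, and ranged from −2.77 to 0.604 points and from −5.38 to 1.37 points with single lines left out. Of the 4 shared regions, 1 to 2 passed for percentile by genotype with single lines left out, and for female ΔEcad 0 when ranked among shared regions and 0 to 2 with lines left out. For covered length, 1 passed by genotype as a share of the list (the Cdh2 3′ end, 16.8 bp per Mb, exact permutation p = 0.0238) and 1 with shortened lists (the Cdh2 start, −1078 bp, exact permutation p = 0.0397). With lines left out, 1 to 3 passed for female ΔEcad and 0 to 1 by sex (1 without Ma_1014 or Ma_1064). As a share, the Cdh2 3′ end turned to 8.50 bp per Mb in female ΔEcad lines. The cause of these changes was not tested. Of 163 counts recomputed, 145 were unchanged or within 1.5 times, and many of these were 0 both times. Counts of changed promoter calls with a line left out could only be 0, since the calls were the same in every list. With 4 and 5 lines, no gene or region passed after adjustment in any comparison.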
